A study of Homo sapiens with 18 samples.

Results

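Gene expression was compared between podocytes on fractal and on smooth surfaces while both were exposed to inflammatory cytokines. This comparison rests on 6 of the 18 libraries of the series, 3 from smooth and 3 from fractal topography, chosen by their labels alone. The cells were PODO/TERT256, a single human podocyte line immortalised with telomerase, cultured on 3D hemispheres with a smooth or a fractal surface. All 6 libraries came from cells given TNF-α together with IL-6; the dose and the time of exposure are not given in the sources used here. Other libraries of the series serve below for reference, 3 for each topography and treatment: untreated cells (control), and cells exposed to macrophages that had been made from the human monocytic leukaemia line THP-1. Nothing in the labels tells whether replicates were separate cultures, and p-values then reflect variation that may be technical only.

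Podocytes wrap the capillaries of the glomerulus with interlocking foot processes and so help to form the filter of the kidney. TNF-α acts through the receptors TNFRSF1A and TNFRSF1B, and its best known route to the nucleus is NF-kB, a family of transcription factors held in the cytoplasm by inhibitors of the IkB family. NF-kB switches on genes of chemokines, adhesion molecules and antigen presentation, and also its own inhibitors, which shut the response down again. IL-6 acts through the receptor subunit IL6ST, JAK kinases and STAT3, and is the main inducer of acute phase proteins in the liver.

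Library totals ran from 15564940 to 19177212 counts, with counts for 21039 to 22064 genes. Levels are counts per 1000000 with TMM scaling (CPM), given for replicates 1, 2 and 3 in that order, and log2 fold changes are fractal minus smooth with their SE. Adjusted p-values come from edgeR (quasi-likelihood test, Benjamini-Hochberg adjustment over the 16129 genes tested), and a gene passed at 0.05. Smooth cytokines replicate 2 stood apart from its companions. Mitochondrially encoded genes took 8.09% of its counts, against 4.22% and 4.63% in smooth replicates 1 and 3 and 4.26%, 4.25% and 4.45% in the fractal libraries. The mean share was 1.33 percentage points lower on fractal topography, a difference that rested on this library, since it was 0.104 points without it. An exact permutation test, two-sided, gave p = 0.40 for 3 libraries against 3, where the smallest p possible is 0.10. In the same library FN1, the fibronectin gene, took 9.28% of the counts, against 13.5% and 12.8% in its companions and 11.8% to 11.9% on fractal topography. Differences between libraries of a group, set against counting error, gave a chi-square per degree of freedom of 32.0 and 32.7 for the pairs with this library, 11.3 for the other smooth pair, and 5.35 to 7.10 for the fractal pairs.

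On fractal topography 6 of 8 tested CXC chemokine genes, 5 of 8 genes of other chemokines and colony-stimulating factors and 9 of 23 NF-kB subunits and inhibitors were called lower. Called higher were 5 of 14 fibrinogen and clotting genes and 6 of 34 stromal matrix genes (6 and 4 without smooth cytokines replicate 2). Of the 16129 genes tested, 719 passed (4.46%), 442 lower (2.74%) and 277 higher (1.72%) on fractal topography. Those shares of all genes are the background for every count of list members below. The median log2 fold change over all tested genes was 0.00. Among the lower genes 144 fell at least 2-fold and 42 at least 4-fold, and among the higher genes 51 and 11. The groups did not overlap in 703 of the 719, against 17.6% of all genes tested (9.17% with fractal below and 8.43% with fractal above). Of the 719, 391 overlap an annotated gene on the opposite strand (9351 of the 16129 tested), taking whole gene spans with introns. In libraries without strand, reads of both genes could be mixed where transcripts of the other gene cover exons of the called one. Such cover was not tested. Of the genes described below the 391 include IL6, ICAM1, SOD2, TNFAIP3, SLC7A2, IQCD, NTN1, TTC29, UNC13A, KCNK12, CHRD, BGN, VCAN, LAMA3, LAMA4, MMP1, TAGLN, ITGA5, CDKN1A and CPE. FOSB, PAX8, KRT8 and KRT18 are also among them. By type, 695 were protein-coding and 19 were lncRNA genes, 8 lower and 11 higher. Without smooth cytokines replicate 2 the count was 740, of which 595 were among the 719, and all 719 kept their direction. Leaving out that library together with fractal THP-1 replicate 3, another library with an unusual mitochondrial share (0.847%), which enters the fit through the shared spread and the filter on low counts, gave 1561 genes, 706 of them among the 719.

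**Figure D1:**
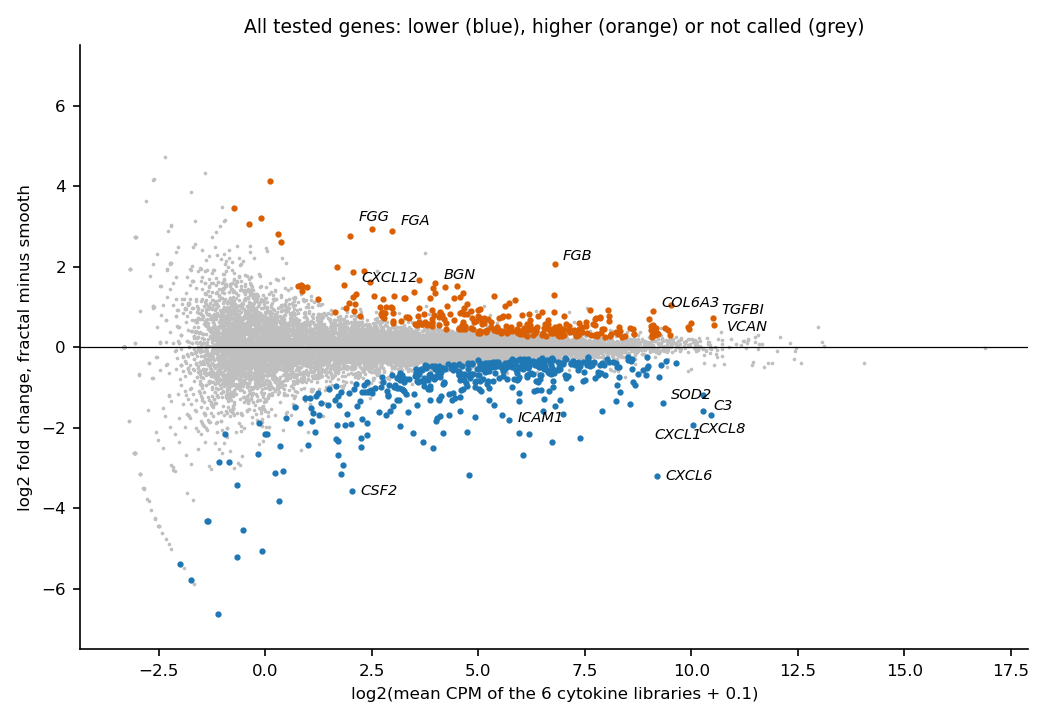
Log2 fold change, fractal minus smooth under cytokines, of each of the 16129 genes tested (vertical axis) against the log2 of its mean CPM over the 6 libraries plus 0.1 (horizontal axis). The 442 genes called lower are blue, the 277 called higher orange, and genes that did not pass are grey; CXCL6, CSF2 and CXCL1 are among the labelled lower genes, and FGG, FGA and FGB among the higher ones.

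Chemokines of the CXC family are small secreted proteins, and those with the ELR motif before the first cysteines (CXCL1, CXCL2, CXCL3, CXCL5, CXCL6 and CXCL8) recruit neutrophils through the receptors CXCR1 and CXCR2. Of the 13 genes on the CXC list, 8 were tested, and 6 of the 8 fell and 1 rose, with a median log2 fold change of -1.50 (all genes, 0.00). The 6 that fell were exactly these neutrophil chemokines. All 6 lie on chromosome 4 and include close paralogs, among them CXCL1, CXCL2 and CXCL3. Their values and promoters are therefore not 6 independent observations. CXCL6 stood at 1058, 861 and 1269.5 CPM in the smooth libraries and at 99.5, 109 and 141 CPM in the fractal ones. Every fractal library lay far below every smooth one, a 9.14-fold lower mean (log2 fold change -3.19 ± 0.14, edgeR adjusted p 3.0e-13). In untreated cells the means were 58.1 and 42.2 CPM on smooth and fractal surfaces. For CXCL1 the smooth libraries gave 1632, 1497 and 1859 CPM and the fractal ones 389, 433 and 477 CPM. The fractal mean was 3.84-fold lower (-1.94 ± 0.09, edgeR adjusted p 1.0e-13), with both control groups lower still, at 232 and 172 CPM.

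CXCL8, which encodes interleukin 8, had the highest CPM of the tested chemokine genes, with 2071, 2235 and 2184 CPM in smooth and 649.6, 606 and 760.1 CPM in fractal libraries. It was 3.22-fold lower on fractal topography (-1.69 ± 0.08, edgeR adjusted p 3.0e-13), where its level was close to the 702 CPM of the fractal controls, while the smooth controls had 909 CPM. CXCL5 had 252, 242 and 334 CPM in smooth and 54.8, 56.2 and 64.01 CPM in fractal libraries. Again no fractal library reached the lowest smooth one (-2.24 ± 0.13, edgeR adjusted p 4.6e-11). The same held for CXCL2 (-1.31 ± 0.15, edgeR adjusted p 1.8e-06) and CXCL3 (-1.27 ± 0.17, edgeR adjusted p 1.4e-05), whose fractal means were 21.8 and 12.9 CPM. Per kilobase of exon, the smooth levels of these 6 ran from 13.98 CPM for CXCL3 to 1283 CPM for CXCL1, and CXCL1 (334) and CXCL8 (295) also headed the fractal levels.

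CXCL12, which signals through CXCR4 and is not a neutrophil chemokine of the ELR type, went the other way. It stood at 7.19, 8.71 and 8.47 CPM in smooth and 22.7, 26.7 and 18.3 CPM in fractal libraries. The fractal libraries were all higher, 2.78-fold on average (1.47 ± 0.20, edgeR adjusted p 2.2e-05). Both control groups had under 1 CPM (0.446 on smooth and 0.135 on fractal topography). CXCL16, the remaining tested member, did not pass and its groups overlapped (-0.14 ± 0.34; 0.18 without smooth replicate 3).

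The promoters of the chemokine genes are shown because the 6 neutrophil chemokine genes that fell all carry the same short motif close upstream of their start. The letters searched were GGANTTTCC on either strand, a core found in many NF-kB sites, in the 250 bases upstream of the start, in the RefSeq promoter table of GRCh38.p14. A match is a description of the letters and not a measured binding site. The last 200 bases before the start follow, 5′ to 3′ on the gene's strand, with the match in capitals.
CXCL6, chr4:73836478-73836677, plus strand: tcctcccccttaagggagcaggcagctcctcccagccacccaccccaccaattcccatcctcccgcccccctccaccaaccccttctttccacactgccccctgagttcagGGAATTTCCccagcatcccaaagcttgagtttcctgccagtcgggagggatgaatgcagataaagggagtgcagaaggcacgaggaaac
CXCL1, chr4:73869193-73869392, plus strand: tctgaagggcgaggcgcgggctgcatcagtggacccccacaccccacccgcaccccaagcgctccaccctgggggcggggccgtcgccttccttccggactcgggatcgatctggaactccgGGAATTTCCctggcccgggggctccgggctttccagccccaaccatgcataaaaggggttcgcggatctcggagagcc
CXCL8, chr4:73740369-73740568, plus strand: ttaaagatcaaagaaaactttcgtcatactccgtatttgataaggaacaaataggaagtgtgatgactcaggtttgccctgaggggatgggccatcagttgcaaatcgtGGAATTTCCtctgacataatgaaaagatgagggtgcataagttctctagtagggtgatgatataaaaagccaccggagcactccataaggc
ICAM1, chr19:10270920-10271119, plus strand: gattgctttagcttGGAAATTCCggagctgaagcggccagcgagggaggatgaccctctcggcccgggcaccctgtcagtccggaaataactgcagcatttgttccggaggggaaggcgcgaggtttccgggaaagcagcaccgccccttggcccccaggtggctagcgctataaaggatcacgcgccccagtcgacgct
The match began 89 bases before the start in CXCL6, 78 in CXCL1 and 91 in CXCL8, and 186 in ICAM1, where it lay on the opposite strand. CXCL2 (77 bases), CXCL3 (78) and CXCL5 (90) had a match at a like distance, and CXCL12 had none. Of the 8 tested CXC genes 7 had a promoter in the table, and 6 of the 7 held the letters. Over all tested genes with a promoter in the table, 229 of 11381 held them (2.01%). Of genes called lower 29 of 337 did (8.61%), of those called lower at least 2-fold 19 of 103 (18.4%), and of genes called higher 3 of 215 (1.40%). The letters were not found in this window of CSF2, CCL20, VCAM1 or CD47.

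**Figure D2:**
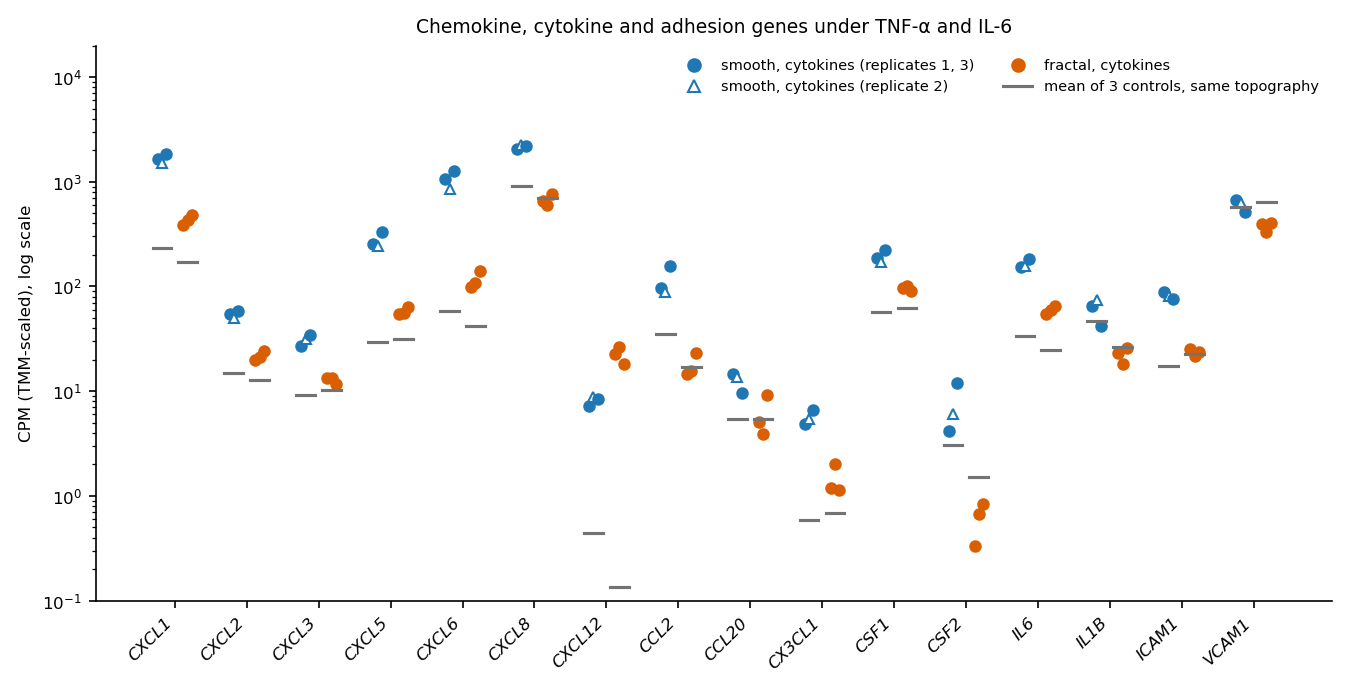
CPM on a log axis of 16 chemokine, cytokine and adhesion genes in each cytokine library (blue, smooth; orange, fractal; the open triangle is smooth replicate 2), with grey bars for the mean of the 3 controls on the same topography. Fractal points lie below all smooth points for every gene shown except CXCL12, where they lie above.

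CC chemokines attract monocytes and lymphocytes, and the colony-stimulating factors promote the survival and growth of myeloid cells. Of 14 genes listed 8 were tested, and 5 of these fell and none rose (median log2 fold change -1.57). CCL2, the main monocyte attractant, had 96.5, 89.1 and 156 CPM in smooth and 14.6, 15.7 and 23.4 CPM in fractal libraries. The fractal mean was 6.36-fold lower (-2.67 ± 0.31, edgeR adjusted p 9.1e-05), close to the 16.996 CPM of the fractal controls. CSF2, the gene of GM-CSF, had 4.21, 6.02 and 11.9 CPM in smooth and 0.333, 0.676 and 0.827 CPM in fractal libraries, from 388 and 29 counts in all. Smooth replicate 3 was the highest, and all 3 fractal libraries lay below 1 CPM, under the control means of 3.05 and 1.51 CPM (-3.57 ± 0.36, edgeR adjusted p 2.8e-07). CSF1, the macrophage growth factor, had 189, 171 and 220.5 CPM in smooth against 95.98, 100.02 and 91.1 CPM in fractal libraries (-1.01 ± 0.10, edgeR adjusted p 1.0e-07). CX3CL1 (fractalkine), which can tether leukocytes as a membrane protein, fell by 1.94 ± 0.39 on the log2 scale (edgeR adjusted p 0.0021). CCL20 passed (-1.06 ± 0.25) but missed the threshold without smooth replicate 1, fractal replicate 1 or fractal replicate 2, with an edgeR adjusted p of up to 0.10. CSF3, CCL5 and CCL11 did not pass (-2.39, -1.20 and 0.10), and the sign of CCL11 changed with the libraries left out.

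IL6 transcripts stood at 155, 156 and 183 CPM in smooth and 54.5, 58.98 and 64.9 CPM in fractal libraries. The groups were well apart (-1.47 ± 0.09, edgeR adjusted p 1.7e-11), and both control means were lower, 33.7 and 24.5 CPM. In the list of the interleukin 6 family, its receptors and the STAT3 response 3 of 24 tested members fell, IL6 among them (12.5%, against 2.74% of all genes), and none rose (median 0.02). The kinase gene JAK1 also fell (-0.49 ± 0.07, edgeR adjusted p 7.0e-05). In the interleukin 1 list 4 of 15 fell and none rose (median -0.59). IL1B, the gene of interleukin 1β, had 65.4, 74.6 and 41.5 CPM in smooth and 23.01, 18.2 and 25.6 CPM in fractal libraries. Smooth replicate 3 was nearest to the fractal libraries but still above them (-1.44 ± 0.17, edgeR adjusted p 1.4e-05). IRAK2, a signalling protein of the interleukin 1 and toll-like receptors, fell by 1.34 ± 0.09 (edgeR adjusted p 4.6e-11).

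Receptors and adaptors of TNF fell more often than they rose. Of 29 tested members 13 fell and 1 rose (median -0.36). BIRC3, a ubiquitin ligase of the TNF receptor complex that restrains cell death, had 216, 179.7 and 186 CPM in smooth and 56.2, 55.5 and 72.9 CPM in fractal libraries. All fractal libraries lay below the smooth ones and below the control means of 92.7 and 75.2 CPM (-1.65 ± 0.10, edgeR adjusted p 1.7e-11). The receptor genes TNFRSF9 (-1.60 ± 0.19, edgeR adjusted p 3.7e-06) and CD40 (-0.78 ± 0.09, edgeR adjusted p 1.6e-06) fell too. TNF itself, which was named after its values were seen, had 29 counts in the 3 smooth libraries and 1 in the fractal ones. It passed (edgeR adjusted p 0.012) but not without fractal replicate 1 or fractal replicate 3 (up to 0.076). The receptor for soluble TNF, TNFRSF1A, was the 1 member called higher (0.30 ± 0.08, edgeR adjusted p 0.021), and missed the threshold when smooth replicate 3 or any 1 of the fractal libraries was left out (up to 0.15).

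Of 23 tested subunits and inhibitors of NF-kB, 9 fell and 1 rose (median -0.39). The 9 included both inhibitors and subunits. TNFAIP3, the gene of the ubiquitin-editing enzyme A20 that ends NF-kB signalling, had 554, 494 and 611 CPM in smooth and 200.3, 212 and 211 CPM in fractal libraries. The fractal mean was 2.66-fold lower (-1.41 ± 0.08, edgeR adjusted p 5.7e-12). NFKBIA, which encodes the inhibitor IkBα, had 131, 144 and 139 CPM against 60.3, 66.7 and 68.7 CPM, with no overlap (-1.08 ± 0.09, edgeR adjusted p 5.5e-09). TNIP1, a partner of A20, fell by 0.87 ± 0.09 (edgeR adjusted p 2.3e-07). The subunit genes NFKB2 (-1.06 ± 0.12), NFKB1 (-0.87 ± 0.09) and RELB (-0.85 ± 0.12), named after their values were seen, passed as well, whichever of the 6 libraries was left out. The exception was MAP3K14, the gene of the kinase NIK of the alternative NF-kB pathway, which was higher on fractal topography (0.63 ± 0.15, edgeR adjusted p 0.009). Its call was lost without smooth replicate 2, fractal replicate 1 or fractal replicate 3 (edgeR adjusted p up to 0.065). SOD2, the manganese superoxide dismutase of mitochondria and a strongly TNF-responsive gene, had 1007, 801 and 989 CPM in smooth and 321, 349 and 392 CPM in fractal libraries. The mean was 2.63-fold lower on fractal topography (-1.40 ± 0.11, edgeR adjusted p 1.8e-09), and the controls stood near 107 and 90.4 CPM.

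Adhesion molecules let leukocytes bind to cells. Of 11 tested members 3 fell and none rose (median -0.17). ICAM1, which binds the leukocyte integrins LFA-1 and Mac-1, had 87.9, 81.8 and 75.02 CPM in smooth and 25.01, 21.9 and 23.7 CPM in fractal libraries. The fractal libraries were close to the mean of the fractal controls (22.7 CPM), while all 3 smooth libraries lay far above the smooth controls (17.3 CPM; -1.79 ± 0.09, edgeR adjusted p 5.4e-13). VCAM1, the partner of the integrin VLA-4, had 674, 632 and 518 CPM in smooth and 393, 333 and 407 CPM in fractal libraries. The smaller difference still left no overlap (-0.69 ± 0.09, edgeR adjusted p 2.4e-05), and here the fractal libraries lay below both control means, 571 and 644 CPM. CD47, the signal that restrains phagocytosis, fell by 0.41 ± 0.08 (edgeR adjusted p 0.0012).

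Complement and acute phase genes were lower in part. C3, the central component of complement, had 2099, 1293 and 2172 CPM in smooth and 609, 637 and 606 CPM in fractal libraries. Smooth replicate 2 was the lowest of its group but well above the highest fractal library (-1.59 ± 0.12, edgeR adjusted p 6.2e-09). CFB, the serine protease of the alternative pathway, fell by 1.47 ± 0.22 (edgeR adjusted p 6.5e-05). C1QTNF1, counted on the complement list though not itself a complement component, fell by 1.59 ± 0.11 (edgeR adjusted p 3.9e-10). Over the 19 tested genes of the complement list 5 fell, C1QTNF1 among them, and 1 rose, and the median was -0.01. Without smooth replicate 2, 3 were called lower, since CD55 and CD59, named after their values were seen, lost their calls (edgeR adjusted p 0.073 and 0.13). Serum amyloid A is an acute phase protein of the liver. SAA1 had 44.998, 35.7 and 48.8 CPM in smooth and 8.51, 11.6 and 10.1 CPM in fractal libraries, and SAA2 had 33.1, 23.7 and 31.4 CPM against 4.32, 6.14 and 9.54 CPM. Both were lower in every fractal library (-2.10 ± 0.22, edgeR adjusted p 1.5e-06, and -2.14 ± 0.24, edgeR adjusted p 1.8e-06), although reads shared between these close paralogs leave the level of each uncertain. Of the 8 tested acute phase genes 2 fell (25%) and 1 rose (12.5%), against 2.74% and 1.72% of all genes. Their median log2 fold change was -2.08, with 7 below 0. Between the control groups the median was -1.96, and no member passed the interaction with control. SAA4 did not pass (-2.06, edgeR adjusted p 0.068) but did under DESeq2 (adjusted p 0.0073). The riser, SERPINA1, missed the threshold without smooth replicate 3 or fractal replicate 2 (edgeR adjusted p up to 0.084).

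Of 17 tested genes of MHC class I and peptide loading 7 fell and none rose (median -0.30). TAPBP, the gene of tapasin, which loads peptides onto class I molecules, had 216, 235 and 243 CPM in smooth and 134, 129 and 129 CPM in fractal libraries. The groups were apart by more than their spread (-0.83 ± 0.08, edgeR adjusted p 5.6e-08). HLA-B (-0.76 ± 0.10, edgeR adjusted p 1.3e-05) and the peptide-trimming enzyme gene ERAP1 (-0.57 ± 0.08, edgeR adjusted p 5.8e-05) fell as well; HLA genes share reads with close paralogs. Among 48 interferon-stimulated genes 10 fell and 3 rose (median -0.35). MX1, an antiviral GTPase, had 3.78, 2.62 and 4.10 CPM in smooth and 0.466, 0.614 and 1.34 CPM in fractal libraries. The fractal libraries were all lower, against control means of 1.51 and 1.24 CPM (-2.11 ± 0.36, edgeR adjusted p 3.4e-04). IFIH1, the RNA sensor MDA5, fell by 1.12 ± 0.19 (edgeR adjusted p 4.6e-04) and GBP2, a guanylate-binding protein, by 0.88 ± 0.15 (edgeR adjusted p 2.9e-04). IFITM2, IFITM3 and IFI16 were the 3 that rose (1.09 ± 0.21, 0.79 ± 0.14 and 0.46 ± 0.09). IFITM3, a membrane protein that hinders entry of viruses, had 86.8, 112 and 87.1 CPM in smooth and 159.5, 179.6 and 154 CPM in fractal libraries, with no overlap (edgeR adjusted p 0.0017). The IFITM genes are close paralogs.

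**Figure D3:**
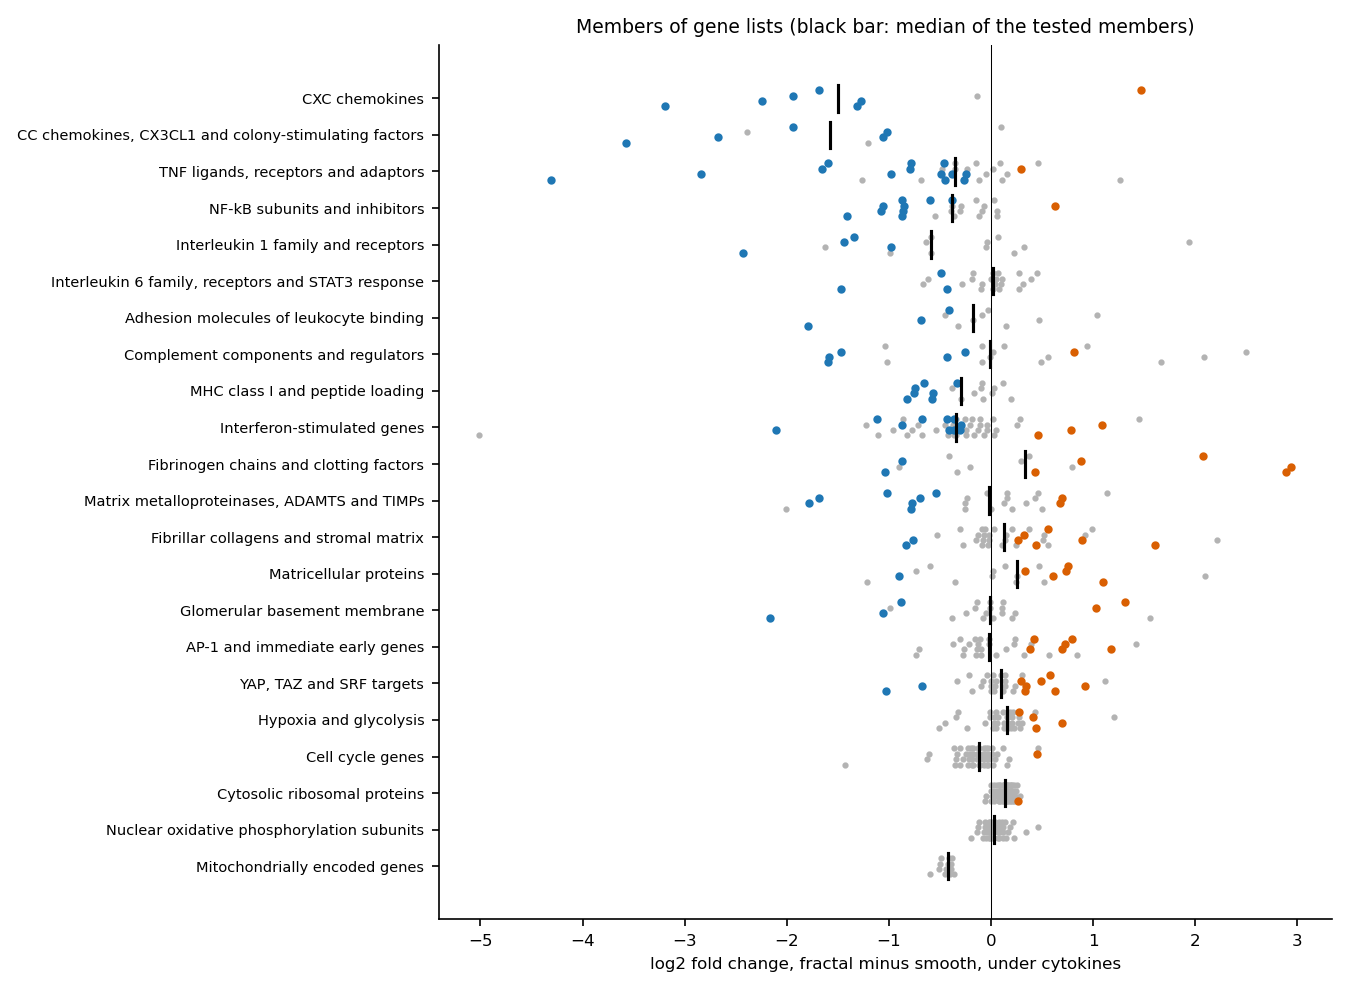
Log2 fold change, fractal minus smooth under cytokines, of each tested member of 22 gene lists (1 list a row; blue, called lower; orange, called higher; grey, did not pass; black bar, median of the tested members). The chemokine lists have medians of -1.50 and -1.57, whereas the lists of ribosomal proteins (0.14) and of nuclear subunits of oxidative phosphorylation (0.03) lie close to 0.

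PTGES, the inducible synthase of prostaglandin E2, fell by 1.30 ± 0.19 (edgeR adjusted p 5.6e-05). Of 19 prostaglandin genes tested 2 fell, PTGES and PTGER4 (10.5%, against 2.74% of all genes), and 1 rose, SLCO2A1 (5.26%, against 1.72%). PTGER4, a receptor of prostaglandin E2 (-0.68 ± 0.17), missed the threshold without smooth replicate 3 or fractal replicate 1 (edgeR adjusted p up to 0.075). SLCO2A1, a prostaglandin transporter (1.40 ± 0.40, edgeR adjusted p 0.045), missed it whichever of the 6 libraries was left out (up to 0.20). AKR1B1, aldose reductase, had 335, 316 and 429 CPM in smooth and 124, 111 and 125 CPM in fractal libraries. The fractal libraries were at the level of both control groups (113 and 118 CPM), and the smooth libraries were 3.01-fold above them on average (-1.59 ± 0.10, edgeR adjusted p 1.7e-11). SLC7A2, a transporter of arginine and other cationic amino acids, had 1747, 1713 and 1685 CPM in smooth and 764, 694 and 808 CPM in fractal libraries. It too left a clear gap (-1.18 ± 0.08, edgeR adjusted p 2.9e-10), with controls at 734 and 704 CPM.

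Ranked by fold among called genes whose groups did not overlap and whose larger mean reached 5 CPM, the top 10 falls were CSF2, CXCL6, IQCD, TMPRSS2, TTC29, UNC13A, CCL2, SERPINB2, KCNK12 and NTN1. IQCD had 54.2, 47.6 and 46.3 CPM in smooth and 4.06, 6.21 and 6.11 CPM in fractal libraries (-3.17 ± 0.13, edgeR adjusted p 1.8e-14). Its smooth libraries lay close together, far above all fractal ones. SERPINB2, the inhibitor PAI-2 of plasminogen activators, had 20.1, 26.3 and 30.8 CPM in smooth and 4.26, 3.50 and 5.98 CPM in fractal libraries. All fractal values lay below the lowest smooth value (-2.49 ± 0.17, edgeR adjusted p 2.7e-10). NTN1, the secreted guidance factor netrin-1, had 168, 151 and 215 CPM in smooth and 30.7, 39.1 and 33.8 CPM in fractal libraries, a 5.15-fold lower mean (-2.36 ± 0.12, edgeR adjusted p 2.2e-12). Of 28 tested axon guidance genes 5 fell (17.9%, against 2.74% of all genes) and 4 rose (14.3%, against 1.72%). TMPRSS2, a membrane protease, reached 6.22, 3.46 and 8.41 CPM in smooth and 0.333, 0.553 and 1.15 CPM in fractal libraries (-3.14 ± 0.36), and its fold grew 1.52 times without fractal replicate 3.

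The fibrinogen genes led the higher genes. Fibrinogen is a clotting protein of 3 chains made mainly by the liver, whose genes FGB, FGA and FGG lie next to each other on chromosome 4. FGB (154562956 to 154571086, GRCh38, GENCODE 29) had 39.9, 68.8 and 18.6 CPM in smooth and 204, 163 and 169.6 CPM in fractal libraries. The smooth libraries were spread over a wide range but stayed below every fractal one (2.08 ± 0.32, edgeR adjusted p 0.0016). FGA had 2.38, 2.51 and 0.710 CPM against 12.3, 16.2 and 12.8 CPM, again without overlap (2.89 ± 0.35, edgeR adjusted p 5.8e-06). FGG had 0.305, 3.10 and 0.437 CPM in smooth and 10.04, 9.46 and 9.99 CPM in fractal libraries (2.94 ± 0.55, edgeR adjusted p 0.0051). Its value turned on smooth replicate 2, by far the highest of its group: without it the log2 fold change was 4.69. In a fit of the 6 cytokine libraries alone FGB and FGG missed the threshold (edgeR adjusted p 0.16 and 0.16), while FGA passed (5.4e-06). Over the 14 tested genes of fibrinogen and clotting 5 rose and 2 fell (median 0.34). The falls were in THBD, the gene of thrombomodulin, which turns thrombin to an anticoagulant role (-1.04 ± 0.17, edgeR adjusted p 3.0e-04), and in F2RL1, the protease-activated receptor PAR2 (-0.87 ± 0.13, edgeR adjusted p 6.5e-05). F2R, the thrombin receptor PAR1, rose by 0.43 ± 0.09 (edgeR adjusted p 0.0035).

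Genes of the stromal and pericellular matrix were higher in part. Of 34 tested genes of fibrillar collagens and stromal matrix 6 rose and 2 fell (median 0.12), and of 18 matricellular genes 5 rose and 1 fell (median 0.25). Without smooth replicate 2 the stromal list had 4 called higher and 2 lower (median 0.07). The matricellular list then had 5 higher and 2 lower (median 0.29). COL6A3, a chain of the microfibrillar collagen VI, had 417, 391 and 352 CPM in smooth and 759, 696 and 693 CPM in fractal libraries. The fractal libraries were nearer to the control means of 587 and 665 CPM than the smooth ones (0.89 ± 0.10, edgeR adjusted p 8.2e-07). TGFBI, an adhesive matrix protein induced by TGF-β, had 1019, 1149 and 1116 CPM in smooth and 1875, 1834 and 1742 CPM in fractal libraries. The gap was 1.66-fold and larger than the spread of either group (0.73 ± 0.07, edgeR adjusted p 1.8e-07). VCAN, the large proteoglycan versican, had 1266, 1088 and 1251 CPM against 1756, 1739.6 and 1829 CPM (0.56 ± 0.10, edgeR adjusted p 4.9e-04). POSTN (periostin, 0.61 ± 0.11) and THBS2 (thrombospondin 2, 0.76 ± 0.12) rose as well, with edgeR adjusted p 8.4e-04 and 1.2e-04. BGN, the small proteoglycan biglycan, rose 3.04-fold from a low level, with 8.48, 8.65 and 6.45 CPM in smooth and 27.6, 22.5 and 21.5 CPM in fractal libraries (edgeR adjusted p 3.0e-06). Its relative DCN, decorin, fell: it had 245, 168 and 263 CPM in smooth and 131, 131 and 117 CPM in fractal libraries, and smooth replicate 2 was the lowest of its group (-0.84 ± 0.13, edgeR adjusted p 2.3e-04).

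Laminins, the cross-shaped proteins of basement membranes, split by chain. LAMB3, a β chain of epithelial laminin, had 119, 111 and 109 CPM in smooth and 58.7, 54.4 and 49.8 CPM in fractal libraries, with every fractal library below the smooth ones (-1.06 ± 0.11, edgeR adjusted p 5.2e-07). LAMA3, an α chain of epithelial laminin, fell by 0.88 ± 0.11 (edgeR adjusted p 6.4e-06). LAMA4, the chain of vessel and muscle laminins, rose, with 39.02, 32.98 and 25.7 CPM in smooth and 71.97, 65.98 and 60.8 CPM in fractal libraries (1.03 ± 0.12, edgeR adjusted p 2.6e-06). COL4A4, a chain of the collagen IV network of the mature glomerular basement membrane, had 1.22, 3.22 and 2.90 CPM in smooth and 6.92, 5.59 and 5.85 CPM in fractal libraries. All 6 values lay below both control means, 19.8 on smooth and 9.67 CPM on fractal topography, and the fractal ones were higher (1.31 ± 0.24, edgeR adjusted p 7.2e-04). Of 21 tested basement membrane genes 3 fell (14.3%, against 2.74% of all genes) and 2 rose (9.52%, against 1.72%), with a median of -0.01.

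**Figure D4:**
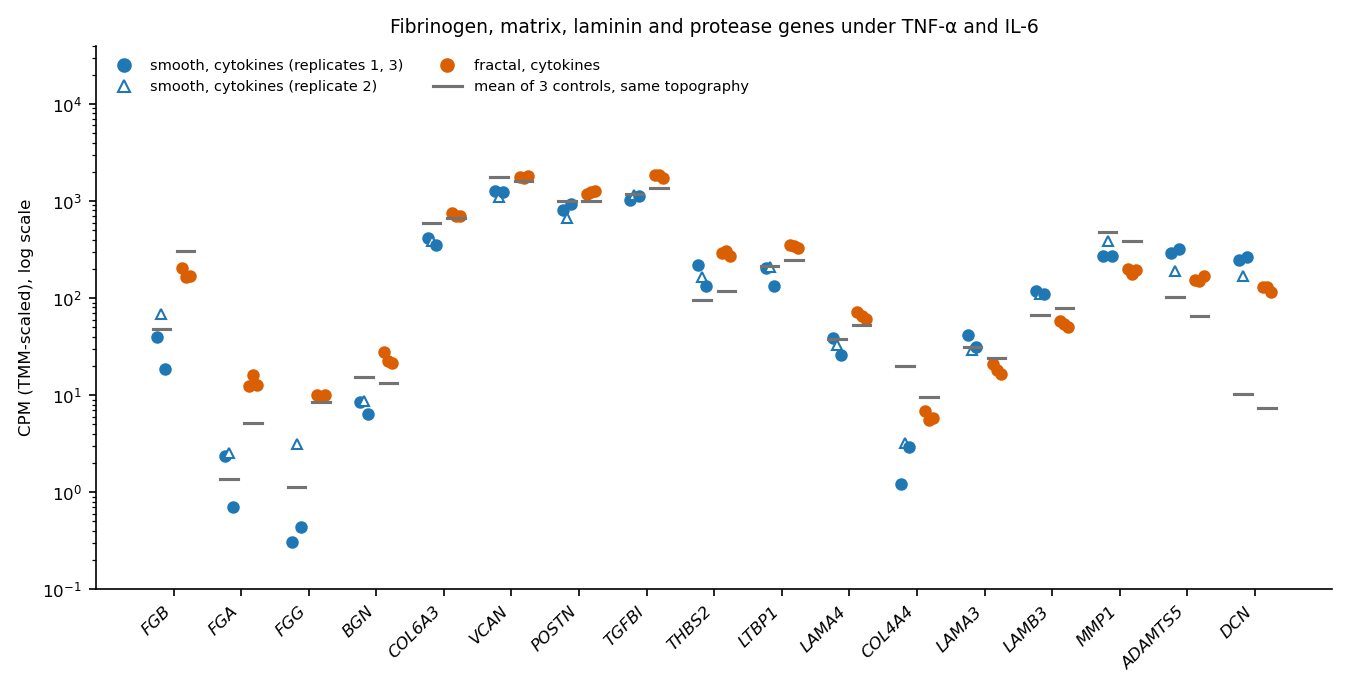
CPM on a log axis of 17 fibrinogen, matrix, laminin and protease genes in each cytokine library (blue, smooth; orange, fractal; the open triangle is smooth replicate 2), with grey bars for the mean of the 3 controls on the same topography. Fractal points lie above all smooth points from FGB to COL4A4 and below them from LAMA3 to DCN.

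Of 24 tested genes of metalloproteinases, ADAMTS and TIMPs 7 were called lower and 2 higher, and 12 had a log2 fold change below 0 (median -0.02). Without smooth replicate 2, 6 were called lower and 3 higher. The 2 called higher were ADAMTSL1 (0.68) and TIMP1 (0.70). TIMP1 lost its call without smooth replicate 1, fractal replicate 1 or fractal replicate 2. MMP1, interstitial collagenase, had 274, 384 and 271 CPM in smooth and 201, 176 and 197 CPM in fractal libraries. Smooth replicate 2 was the highest, and both control groups were higher than the cytokine group of their topography (479 and 385 CPM; -0.70 ± 0.10, edgeR adjusted p 4.5e-05). ADAMTS5, an aggrecanase, fell by 0.77 ± 0.14 (edgeR adjusted p 0.0013), but in a fit of the 6 cytokine libraries alone it missed the threshold (0.065). PLAU, urokinase, fell by 0.66 ± 0.11 (edgeR adjusted p 3.6e-04). PLAT, the tissue plasminogen activator gene, passed (-0.56 ± 0.14, edgeR adjusted p 0.028) although its groups overlapped, and lost its call when any 1 library other than smooth replicate 3 was left out (up to 0.15).

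Growth factor, adhesion and contractile genes went in both directions. In the BMP list 3 of 27 tested genes fell and 3 rose (11.1% each, against 2.74% and 1.72% of all genes). In a fit of the 6 cytokine libraries alone 1 was called lower and 3 higher. NOG, called lower, and ID1, called higher, missed the threshold in 4 and 5 of the 6 fits that leave out 1 library. CHRD, which encodes the BMP antagonist chordin, had 29.9, 19.9 and 28.3 CPM in smooth and 7.58, 6.94 and 9.23 CPM in fractal libraries (-1.72 ± 0.22, edgeR adjusted p 4.2e-05). GDF6, a BMP-family ligand, had 10.4, 16.2 and 15.6 CPM in smooth and 34.9, 33.2 and 32.3 CPM in fractal libraries (1.25 ± 0.13, edgeR adjusted p 5.2e-07). Both kept apart in all 6 libraries. ID2, a target of BMP signalling, rose by 0.89 ± 0.16 (edgeR adjusted p 6.3e-04). In the TGF-β list 2 of 25 fell (8%), SMAD3 (-0.68 ± 0.07, edgeR adjusted p 7.4e-07) and PMEPA1 (-0.38 ± 0.07), and 3 rose (12%). These were LTBP1, which binds latent TGF-β in the matrix (0.92 ± 0.12, edgeR adjusted p 1.3e-05), LTBP2 (0.42 ± 0.09) and SNAI1, a repressor of epithelial genes (0.73 ± 0.13). Of 31 targets of YAP, TAZ and SRF, factors that respond to stretch and actin, 7 rose and 2 fell (median 0.10), with 6 higher and 1 lower without smooth replicate 2. TAGLN, an actin-binding protein of contractile cells, had 129.8, 116 and 166 CPM in smooth and 260.3, 262 and 257 CPM in fractal libraries, with no overlap (0.92 ± 0.16, edgeR adjusted p 9.6e-04). AXL, a receptor kinase, rose by 0.49 ± 0.09 (edgeR adjusted p 9.2e-04). ITGA5, the fibronectin receptor chain, had 824, 828 and 754 CPM in smooth and 1181, 1155 and 1074 CPM in fractal libraries (0.50 ± 0.07, edgeR adjusted p 5.6e-05), whereas the collagen receptor chain ITGA1 fell by 1.24 ± 0.20 (edgeR adjusted p 2.5e-04). Of 31 integrin and focal adhesion genes 4 rose (12.9%, against 1.72% of all genes) and 3 fell (9.68%, against 2.74%). ITGA4, an integrin gene called higher, missed the threshold in 5 of the 6 fits that leave out 1 library.

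Of 31 tested AP-1 and immediate early genes 6 rose and none fell, although the list's median was -0.02, and 0.14 without smooth replicate 2. FOS, a subunit of AP-1, had 50.7, 26.1 and 30.5 CPM in smooth and 83.6, 75.9 and 83.5 CPM in fractal libraries, where both control means were lower (19.2 and 10.1 CPM). It passed (1.18 ± 0.21, edgeR adjusted p 0.0017), but not in the fit of the 6 cytokine libraries alone (0.078). Of the other members called, DUSP4, FOSB, KLF4 and EGR1 missed the threshold in 3, 3, 4 and 5 of the 6 fits that leave out 1 library, with edgeR adjusted p up to 0.17, 0.13, 0.17 and 0.15; FOSB, KLF4 and EGR1 were named after their values were seen. JUN missed it without fractal replicate 1. CDKN1A, the cell cycle inhibitor p21, was the 1 cell cycle gene of 52 called (0.45 ± 0.08, edgeR adjusted p 3.0e-04). That share of the list, 1.92%, was near the 1.72% of all genes called higher.

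Of 36 tested genes of the slit diaphragm, cytoskeleton and podocyte identity 1 fell and 1 rose (2.78% each, near the 2.74% and 1.72% of all genes; median -0.06). Without smooth replicate 2, 3 of them were called lower and 1 higher, and without both libraries that stood apart 4 lower and 5 higher. Of the 9 tested markers of mature podocytes none passed, and 2 were called lower without smooth replicate 2. SYNPO, the actin-associated protein synaptopodin, had 108, 90.2 and 119 CPM in smooth and 116, 122 and 104 CPM in fractal libraries, and the groups overlapped (0.11 ± 0.10, edgeR adjusted p 0.75). PODXL, podocalyxin, did not pass either (-0.07 ± 0.21, edgeR adjusted p 0.95), and its sign changed without smooth replicate 3. NPHS1 and LMX1B had no count in any of the 6 libraries, which for 3 counts over a group allows up to 0.0563 CPM in smooth and 0.0623 CPM in fractal libraries. WT1 had 25 counts on smooth topography and none on fractal, and like NPHS1 it was too low to test. These markers, which define podocytes in the kidney, were thus at or near 0, while SYNPO and PODXL were measured in every library.

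None of 47 nuclear subunits of oxidative phosphorylation passed (median 0.03), nor did any of the 13 mitochondrially encoded genes. The median of the latter was -0.42, and -0.10 without smooth replicate 2. Of 66 cytosolic ribosomal proteins 62 had a positive log2 fold change (median 0.14) and 1, RPL12, passed (1.52%, against 1.72% of all genes called higher). RPL12 kept its call only without smooth replicate 2 among the 6 fits that leave out 1 library, and 37 of the 66 were called higher without both libraries that stood apart. Of 34 genes of cholesterol and fatty acid synthesis 3 fell (8.82%, against 2.74% of all genes), among them INSIG1, a brake on sterol synthesis, with 18.7, 16.4 and 23.4 CPM in smooth and 10.8, 10.8 and 12.5 CPM in fractal libraries (-0.78 ± 0.14, edgeR adjusted p 7.1e-04). SLC7A5, a transporter of large neutral amino acids, was higher, with 462, 635 and 332 CPM in smooth and 1162, 893 and 903 CPM in fractal libraries. The smooth libraries were widely spread, and the call (1.05 ± 0.15, edgeR adjusted p 2.3e-04) did not hold in the fit of the 6 cytokine libraries alone (0.16). NQO1, a quinone reductase of the NRF2 response, rose by 0.43 ± 0.08 (edgeR adjusted p 8.2e-04).

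Markers of other cell types were summed in each library. Of 21 markers of monocytes and macrophages 10 had no count in any of the 6 libraries, among them CD68, CD163, LYZ, TYROBP and AIF1. The sum was 7.68, 8.53 and 7.92 CPM in smooth and 3.19, 5.04 and 3.31 CPM in fractal libraries. The groups did not overlap, and most of the difference lay in CD74 (-1.63) and CD14 (-1.26), both called, although each missed the threshold in 3 or 4 of the fits without 1 library. Among the 11 tested markers 6 had a log2 fold change below 0. FCER1G, not called, went the other way, with 0.305, 0.298 and 0.382 CPM in smooth and 0.466, 1.04 and 0.445 CPM in fractal libraries. PTPRC had counts only in fractal replicates 1 and 2. The endothelial sum was 13.7, 14.9 and 14.0 CPM in smooth and 10.2, 7.43 and 8.84 CPM in fractal libraries, with CDH5 called lower (-1.26, missed in 4 of those fits) and FLT1 and EMCN at 0. The mesangial and smooth muscle sum was 70.4, 70.2 and 76.2 CPM in smooth and 97.2, 103 and 86.9 CPM in fractal libraries. PDGFRB was its 1 called member (0.82 ± 0.12), and ITGA8 and GATA3 were among those at 0. The parietal epithelial sum was 2764, 2638 and 2733 CPM in smooth and 2411, 2290.4 and 2546 CPM in fractal libraries, again without overlap. Of its 7 tested members CLDN1 (-0.94) and PAX8 (-0.53) were called lower and KRT8 (0.41) and KRT18 (0.67) higher, and PAX2 was at 0. These marker genes were named after their values were seen. The part of these markers in the differences above was not tested. In bulk RNA, fewer cells of a type and less RNA per cell cannot be told apart.

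The same surfaces were compared without cytokines, in libraries that this comparison does not share. The difference between topographies itself differed between cytokine and control cells for 436 of 16129 genes (2.7%), 230 below 0 (1.43%) and 206 above 0 (1.28%). The count was 272 without smooth control replicate 1, 281 without smooth control replicate 2, 271 without fractal control replicate 2 and 272 without fractal control replicate 3. Of the 719 genes called under cytokines 271 were among these 436; both values rest on the same cytokine libraries. Between the control groups 286 genes were called (1.77%), 181 lower (1.12%) and 105 higher (0.651%) on fractal topography. Of the 719, 97 were among these 286, and 68 of the 97 had the same direction. ICAM1 had the smallest adjusted p of the interaction: its topography difference was 0.39 ± 0.10 in controls and -1.79 ± 0.09 under cytokines, a change of -2.19 ± 0.13 (edgeR adjusted p 1.4e-10). For CXCL6 the control difference was -0.46 ± 0.13, and the change was -2.73 ± 0.18 (edgeR adjusted p 8.5e-09). CXCL1, CXCL5 and AKR1B1 also shifted downward, by -1.51 ± 0.12, -2.33 ± 0.19 and -1.65 ± 0.13 (edgeR adjusted p 2.8e-08, 6.0e-08 and 2.8e-08).

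In the other direction, the 5 genes with the smallest interaction p were CDKN1A, TXNIP, PTGIS, CPE and CD24. All 5 had a negative topography difference in controls and a positive value under cytokines. CDKN1A went from -0.82 ± 0.08 to 0.45 ± 0.08 (interaction 1.28 ± 0.11, edgeR adjusted p 3.8e-08) and TXNIP, the thioredoxin-interacting protein, from -1.003 ± 0.11 to 0.66 ± 0.11 (interaction 1.66 ± 0.15, edgeR adjusted p 1.9e-07). PTGIS, prostacyclin synthase, differed in the interaction (0.95 ± 0.10, edgeR adjusted p 7.9e-07), but its own difference under cytokines did not pass (0.22 ± 0.07, 0.073). CPE, a prohormone-processing carboxypeptidase, had 24.6, 20.2 and 20.9 CPM in smooth and 37.7, 44.1 and 43.3 CPM in fractal libraries with cytokines, against control means of 22.2 and 12.6 CPM (interaction 1.74 ± 0.18). CD24, a surface glycoprotein, had 60.97, 77.7 and 53.7 CPM and 144, 163 and 162 CPM, against control means of 121 and 95.6 CPM (interaction 1.63 ± 0.17). INSIG1 was higher on fractal topography in controls (1.16 ± 0.14) and lower with cytokines, with an interaction of -1.94 ± 0.20 (edgeR adjusted p 7.8e-07).

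For other genes the interaction did not pass. C3 was lower on fractal topography in controls too (-1.19 ± 0.13, interaction -0.40 ± 0.17, edgeR adjusted p 0.31), as was CHRD (-2.13 ± 0.33, interaction 0.41 ± 0.40, 0.77). FGB and FGA were higher in controls (2.67 ± 0.33 and 1.89 ± 0.36), with interactions of -0.59 ± 0.44 and 1.00 ± 0.51 (edgeR adjusted p 0.67 and 0.40). GDF6 was likewise higher in both (1.07 ± 0.13 in controls, interaction 0.18 ± 0.18). These values do not show that the differences with and without cytokines were equal.

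**Figure D5:**
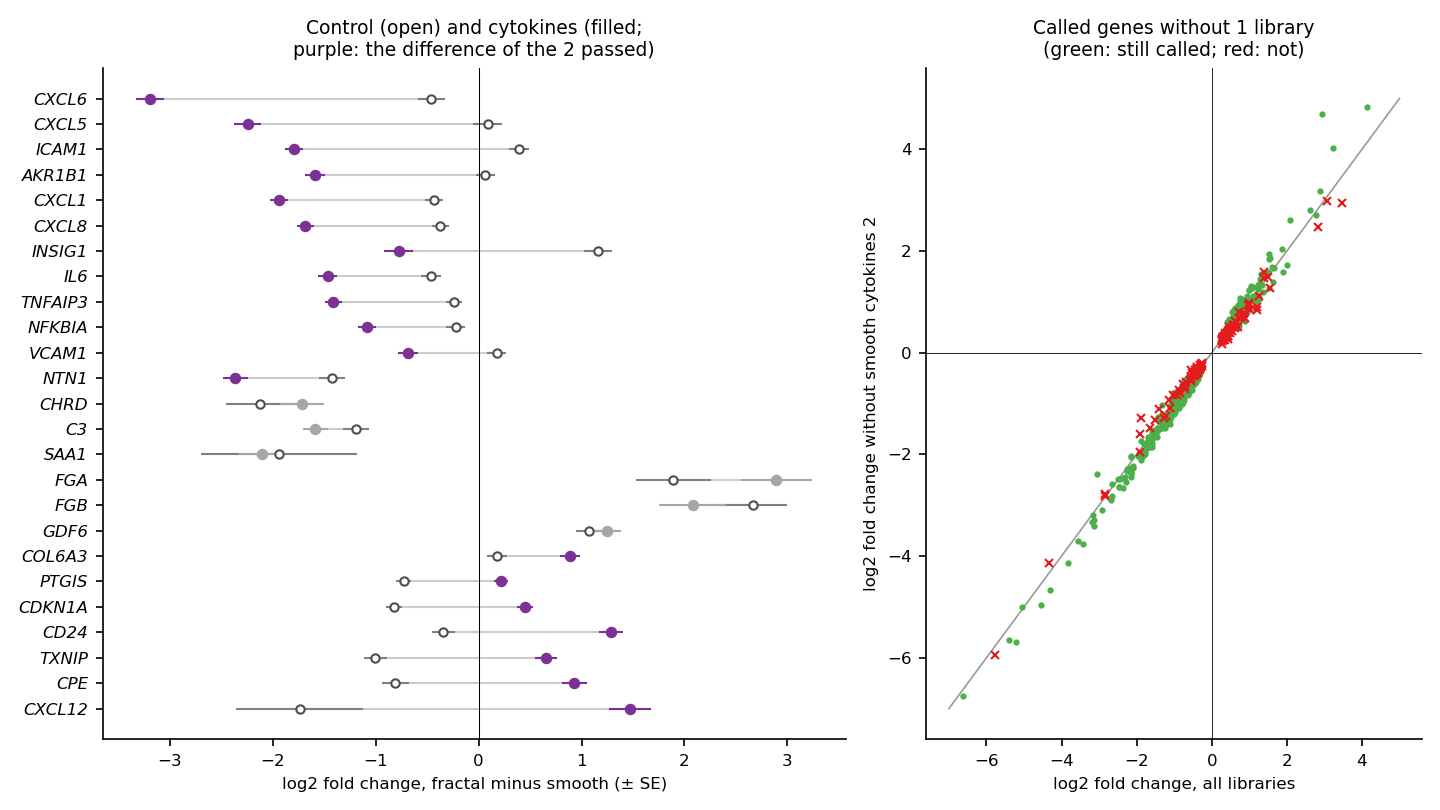
Left, log2 fold change, fractal minus smooth, with SE bars for 25 genes in controls (open) and under cytokines (filled; purple where the difference of the 2 passed edgeR's test, grey where it did not), with CXCL6 at -0.46 and -3.19. Right, log2 fold change of the 719 called genes with all libraries (horizontal axis) and without smooth cytokines replicate 2 (vertical axis); the 595 that passed in both are green dots, the others red crosses, and the line marks equal values.

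Set against the topography difference with THP-1 macrophages, 1847 genes differed (11.5%), 813 below 0 (5.04%) and 1034 above 0 (6.41%), among them 429 of the 719. Fractal THP-1 replicate 3 stood apart from its companions, with a mitochondrial share of 0.847% and a chi-square per degree of freedom of 57.1 and 58.2 in its pairs. The count was 3205 without it and smooth cytokines replicate 2, 2759 without it alone, and 1172 in a fit of only the groups compared. Between the THP-1 groups 3220 genes were called (20%), 1890 lower (11.7%) and 1330 higher (8.25%) on fractal topography. Of the 719 called under cytokines 342 were among them, and 177 of the 342 had the same direction. Over the 8 tested CXC genes the median log2 fold change was 0.62 with THP-1, against -1.50 under cytokines. Of the neutrophil chemokines only CXCL6 and CXCL1 are given here. CXCL6 was higher on fractal topography with THP-1 (means of 117 and 520.1 CPM, 2.15 ± 0.13), so that the 2 differences lay -5.34 ± 0.19 apart (edgeR adjusted p 9.9e-15). CXCL1 was also higher with THP-1 (1.07 ± 0.09, apart by -3.01 ± 0.12, edgeR adjusted p 9.9e-15), and so were C3 (1.53 ± 0.12) and SOD2 (1.18 ± 0.11), which were apart by -3.11 ± 0.17 and -2.57 ± 0.15. ICAM1 was lower on fractal topography under either treatment, by more with cytokines (-1.17 ± 0.12, edgeR adjusted p 1.9e-07). CSF1 was lower under both (-0.87 ± 0.10 with THP-1), and the difference did not pass (-0.15 ± 0.14, edgeR adjusted p 0.58).

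Of the 19 lncRNA genes called, those with the smallest p were LINC02376, CERNA2 and MIR3142HG among the lower and LINC03033, LINC02593 and GAS5 among the higher. LINC03033 had 15.3, 13.1 and 9.89 CPM in smooth and 32.9, 29.9 and 27.1 CPM in fractal libraries, above both control means (18.1 and 10.1 CPM; 1.23 ± 0.16, edgeR adjusted p 8.7e-06). MIR3142HG, the host transcript of the NF-kB-induced microRNA miR-146a, fell by 0.85 ± 0.19 (edgeR adjusted p 0.0054). GAS5, a host of small nucleolar RNAs, rose by 0.45 ± 0.09 (edgeR adjusted p 0.0018).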

How the data were processed

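RNA was measured in 18 libraries of a podocyte line, of which the 6 cytokine libraries form the comparison and the other 12 serve as reference and share the estimate of the spread. The deposited table holds raw read counts per gene made by the authors; the submitters' processing notes name the build GRCh38 (hg38), featureCounts 1.5.0-p3, HISAT2 2.0.5 and CASAVA, without roles, and the annotation release and strand setting of the counting are not given in the sources used here. All 58735 gene identifiers were found in GENCODE 29, which gave types, lengths and positions. Genes were kept by edgeR's filter (10 counts in a library, 15 in all) and scaled with TMM factors, and edgeR 4.0.16 (R 4.3.3) fitted 6 group means, with 12 residual degrees of freedom and a biological coefficient of variation of 12.2%. The SE is the size of the log2 fold change divided by the square root of the F statistic. Contrasts were fractal minus smooth under cytokines, and that difference minus the same one in controls or with THP-1. Benjamini-Hochberg adjusted p-values were called at 0.05. The mitochondrial share was compared with an exact permutation test. The script was tested on simulated data: at 200 changed genes among 15814, edgeR recovered 74% of the 2-fold and 53% of the 1.5-fold changes in this comparison and called 9 unchanged genes. The simulation drew all libraries of a group from a shared mean, with none that stood apart, and changed no gene of very low level. These rates may therefore not carry over to the data.

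Same-numbered libraries of the cytokine groups did not deviate together (correlations from -0.049 to -0.008), so replicate numbers were not used as pairs. All libraries entered the fit with equal standing. Alternatives were DESeq2 1.42.0, limma-voom (limma 3.58.1), other scaling factors, other filters, a replicate block, only the groups compared, leaving out libraries, and a fold threshold. A fit of the cytokine groups without smooth replicate 2 was added after seeing the data. The members and gene lists were chosen with earlier results of these data known. Named genes are up to 10 per direction by fold (5 CPM or more in the higher group, no overlap), up to 6 by CPM difference, up to 3 per list and direction by adjusted p, up to 3 lncRNA genes per direction, 12 chosen inflammation and podocyte genes, all members of lists with at most 8 tested genes, and up to 5 per direction by the interaction with control. Others are said in the text to have been chosen after their values were seen.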

Additional observations from a re-analysis of the deposited data

Results flagged for a closer look

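The topography difference depended on the treatment for many genes. Under edgeR's test of that difference, 436 genes differed between cytokine-treated and control cells and 1847 between cytokine-treated and THP-1-exposed cells. Taking the 5 genes with the smallest adjusted p against control in each direction, the shifts below 0 were, on the log2 scale, -2.19 for ICAM1, -2.73 for CXCL6, -1.51 for CXCL1, -1.65 for AKR1B1 and -2.33 for CXCL5. The shifts above 0 were 1.28 for CDKN1A, 1.66 for TXNIP, 0.95 for PTGIS, 1.74 for CPE and 1.63 for CD24. Without smooth cytokines replicate 2 the 436 became 532, and without both libraries that stood apart 1461.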

How the results depend on the processing

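All 719 genes called under cytokines kept their direction in each fit that retested them, and the count of 719 lay between 694 and 929 under DESeq2, limma-voom, other scalings, other filters, the replicate block and the cytokine groups alone. It was 195 when a 2-fold change was also required, 1561 without both libraries that stood apart, and 495 to 740 without 1 library. The 436 genes that differed from control became 688 with DESeq2, 983 in a fit of only the groups compared, 1461 without both libraries, 174 with that requirement and 271 to 532 without 1 library. The 1847 that differed from THP-1 became 1172 in a fit of only the groups compared, 3205 without both libraries, 705 with that requirement and 1373 to 2759 without 1 library. The causes were not tested. With the replicate number as a block the counts were 694, 416 and 1787; the samples share only a number, so this is no paired result. Of 165 named genes that passed, 165 passed with DESeq2, 162 with limma-voom, 146 with the cytokine groups alone and 132 to 153 without 1 library. The difference in mitochondrial share ran from -2.04 to -0.104 percentage points without 1 library.

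Signs reversed only for genes that did not pass. Without 1 library CXCL16 ran from -0.32 to 0.18, the latter without smooth replicate 3, and CCL11 from -1.83 without fractal replicate 3 to 1.92, with -0.33 without smooth replicate 1 or 2. PTX3 ran from -0.41 to 0.14, the latter without smooth replicate 2, MT2A from -0.10 to 0.27, and PODXL from -0.27 to 0.12. Without both libraries that stood apart CCL11 was -0.33 and PTX3 0.14, and in the cytokine groups without smooth replicate 2 PTX3 was also 0.14. Depth limits low genes such as TNF, with 30 counts in all.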
